A study of Rattus norvegicus with 6 samples.

Results

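The transcripts described here are 8 genes of the hair bundle, the mechanically sensitive organelle of the vestibular hair cell (HC): Tmc1, Tmc2, Lhfpl5, Tmie, Cib2, Pcdh15, Cdh23 and Loxhd1. They were chosen by gene symbol, as known components of the mechanotransduction channel and of the tip link together with a stereociliary protein tied to them. Earlier results of these data were known when the choice was made. All 8 were found once each among the 32883 genes of the count table. RNA was sequenced from 6 Long-Evans rats. The 3 STREP animals received streptomycin, an aminoglycoside antibiotic that damages HCs, at 500 mg/kg under the skin each day for 6 weeks from postnatal day 21, and the 3 Control animals received the solvent, PBS. Both groups held 2 males and 1 female. For each animal, 2 utricles and 6 cristae were combined into a single sample, so a value averages over both organs and over all of their cells. The titles of STREP replicates 1 and 2, both male, carry the same number and differ in letters that are not explained, so how these animals are related is not known. They are treated as separate animals, since both ears of each animal were combined, and Tmc2 and Loxhd1 were called without either of them, with log2 fold changes of -1.56 and -1.19 without replicate 1 and -1.79 and -1.30 without replicate 2.

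When the bundle is deflected, fine extracellular filaments called tip links pull on ion channels at the tips of the shorter stereocilia, and cations enter the HC. The tip link is built from cadherin 23 at its upper end and protocadherin 15 at its lower end, where it meets the channel. TMC1 and TMC2 form the pore, and LHFPL5, TMIE and CIB2 are needed to assemble, place or gate it. Mutations in many of these genes cause hereditary deafness, and aminoglycosides can enter HCs through this channel.

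Streptomycin was accompanied by unequal differences within this group of genes. Tmc2 and Loxhd1 fell most, to 30.5 and 43.2% of their Control means. Cib2 fell less, to 66.3%. Lhfpl5 and Tmc1 stood at 73.1 and 75.6%, Tmie at 93.4%, Pcdh15 at 102% and Cdh23 at 136%. Genes are referred to as called where DESeq2 gave a p-value under 0.05 after Benjamini-Hochberg adjustment together with a fold change above 1.5. By this rule 3 of the 8 were called lower, against 1.37% of all 16250 genes tested, and 0 were called higher, against 1.87%. By the adjusted p-value alone, Lhfpl5 joined them, giving 4 of 8 lower (background 1.62%) and 0 higher (background 2.1%). In 6 of the 8, all 3 STREP animals lay below all 3 Control animals, a pattern found in 8.63% of tested genes. The median log2 fold change was -0.43 for the 8 genes and 0.0069 for all genes tested. In tissue that mixes cell types, fewer HCs and less RNA per HC cannot be told apart.

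**Figure D1:**
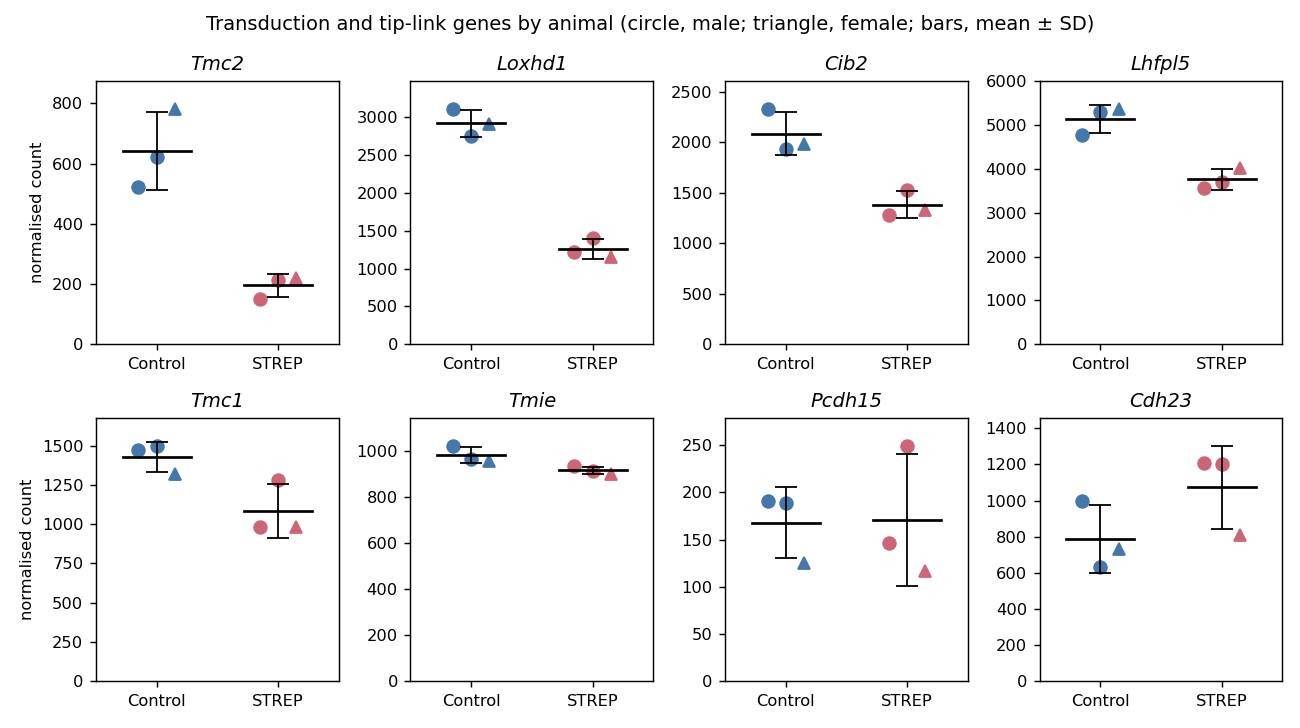
Normalised counts (counts divided by the size factor of the library) of the 8 genes in each animal; circles are males, triangles females, black lines group means and bars the SD (n = 3 per group). STREP animals lie below all Control animals in every panel except Pcdh15 and Cdh23, with a wide gap for Tmc2 (STREP at most 221, Control at least 523) and a narrow gap for Tmie (at most 933 against at least 955).

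Tmc2 encodes the TMC subunit that appears first in developing cochlear HCs and is later lost there, but that vestibular HCs keep into adult life. Its normalised counts were 523, 621 and 781 in the Control animals and 150, 215 and 221 in the STREP animals. The groups were far apart, although Tmc2 varied within them more than any of the 8 genes except Pcdh15 and Cdh23 in Control animals (coefficient of variation 20.2%). The mean went from 642 ± 130 to 196 ± 39.2 (SD, n = 3). The log2 fold change was -1.71 ± 0.26 (SE, DESeq2 adjusted p = 9.98e-09), a 3.28-fold decrease with a 95% interval of 2.31 to 4.67. This change was lower than that of all but 2.28% of tested genes. Tmc2 was called under every setting and with every animal left out, and its log2 fold change then ran from -1.85 to -1.55.

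Tmc1, its paralog, is the pore subunit of mature cochlear HCs and is also expressed by vestibular HCs. Control animals had 1472, 1500 and 1321 normalised counts and STREP animals 981, 1282 and 984. The groups did not overlap, but STREP replicate 2 came close to the lowest Control animal. The log2 fold change was -0.40 ± 0.17 (DESeq2 adjusted p = 0.256), with a 95% interval of -0.74 to -0.06, and it was not called. Without STREP replicate 2 it was -0.54, with a DESeq2 adjusted p of 0.0325 but still short of the fold change threshold. Because both genes were read in the same libraries, the log2 ratio of Tmc2 to Tmc1 could be compared in each animal without scaling between libraries. That ratio was -1.49, -1.27 and -0.76 in Control animals and -2.71, -2.58 and -2.15 in STREP animals. Its mean ± SD over 3 Control animals was -1.17 ± 0.38 and over 3 STREP animals -2.48 ± 0.29, and the difference had the smallest p that an exact two-sided permutation test of 3 against 3 can reach (p = 0.1). Over the 14 ratios examined here, the Benjamini-Hochberg adjusted value was 0.233 for each ratio that reached this smallest p. Because gene length enters such a ratio, only its difference between animals is read here, not which of the pair was more abundant.

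The stretches of 250 bases before the RefSeq start sites of the pair are shown because these paralogs, although both are pore subunits, differed in how far they moved. They come from the GRCr8 assembly, a later build than the Rnor6.0 used for counting, and capitals mark each CG dinucleotide. The Tmc2 window lies at chr3:137849263-137849512 on the plus strand and the Tmc1 window at chr1:227872535-227872784 on the minus strand, both written in the direction of the gene.
Tmc2: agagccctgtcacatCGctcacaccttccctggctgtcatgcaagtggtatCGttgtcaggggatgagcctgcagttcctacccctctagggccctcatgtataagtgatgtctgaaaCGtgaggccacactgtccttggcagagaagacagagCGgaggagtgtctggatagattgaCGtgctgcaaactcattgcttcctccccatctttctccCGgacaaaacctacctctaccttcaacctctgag
Tmc1: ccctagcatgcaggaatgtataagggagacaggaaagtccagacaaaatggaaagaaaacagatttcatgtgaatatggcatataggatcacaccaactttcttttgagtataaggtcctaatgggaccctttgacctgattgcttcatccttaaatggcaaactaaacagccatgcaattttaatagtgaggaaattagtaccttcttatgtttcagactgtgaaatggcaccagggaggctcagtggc
The Tmc2 window held 6 CG dinucleotides and 53.2% G or C. The Tmc1 window held 0 CG and 40.8% G or C, whereas 92.17% of the 33469 rat windows in the table held at least 1, with a median of 5.

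LHFPL5, a tetraspan membrane protein, links protocadherin 15 to the channel. Lhfpl5 had 4783, 5291 and 5362 normalised counts in Control and 3559, 3697 and 4028 in STREP animals. Every STREP animal was below every Control animal, and variation within each group was small (6.14 and 6.42%). The log2 fold change was -0.45 ± 0.13 (DESeq2 adjusted p = 0.0161), a 1.37-fold decrease. The adjusted p-value was under 0.05 in 4 of 9 other settings, and it was 0.0946 with the edgeR quasi-likelihood test after filtering. It stayed under 0.05 when Control replicate 1 or STREP replicate 3 was left out, but was 0.108, 0.120, 0.118 and 0.0545 without Control replicates 2 and 3 and STREP replicates 1 and 2, while the log2 fold change stayed between -0.51 and -0.41.

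CIB2, a calcium- and integrin-binding protein, binds TMC1 and TMC2 from the cytoplasm. Cib2 counts were 2325, 1934 and 1984 in Control and 1282, 1530 and 1328 in STREP animals. The groups did not overlap, and STREP replicate 2 was again the highest of its group. The log2 fold change was -0.59 ± 0.16 (DESeq2 adjusted p = 0.00737), or 1.51-fold, which is just past the 1.5-fold threshold. The call was kept in 4 of 9 other settings, with DESeq2 adjusted p = 0.309 when library totals replaced size factors and 0.0606 with edgeR after filtering. It was lost without Control replicate 1 (-0.51), STREP replicate 1 (-0.54) or STREP replicate 3 (-0.56), and the log2 fold change stayed below 0 in all of these fits.

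TMIE is a small membrane protein that the channel needs in order to conduct. Tmie had 1022, 967 and 955 normalised counts in Control and 933, 914 and 902 in STREP animals. The groups touched without overlapping, and this was the least variable of the 8 genes (3.64 and 1.72%). Its fold change was -0.10 ± 0.15 on the log2 scale (DESeq2 adjusted p = 0.913). Its 95% interval, from -0.39 to 0.20, excludes a 1.5-fold decrease.

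LOXHD1 is a stereociliary protein made of repeated PLAT domains, and cochlear HCs that lack it lose normal transduction. Loxhd1 had 3107, 2749 and 2912 normalised counts in Control and 1224, 1410 and 1156 in STREP animals. The highest STREP value was below the lowest Control value by a wide margin, with variation of 6.12 and 10.4% within the groups. The mean went from 2923 ± 179 to 1263 ± 131 (SD, n = 3), which is -1.21 ± 0.15 on the log2 scale (DESeq2 adjusted p = 1.49e-13). This is a 2.31-fold decrease with a 95% interval of 1.89 to 2.83. Loxhd1 was called under every setting and every omission of an animal, with log2 fold changes from -1.30 to -1.15. The log2 ratio of Loxhd1 to Tmc1 was 1.08, 0.87 and 1.14 in Control and 0.32, 0.14 and 0.23 in STREP animals, lower in 3 of 3 STREP animals (mean difference -0.80, exact permutation p = 0.1). By contrast, the ratio of Lhfpl5 to Tmc1 differed by -0.04 (exact permutation p = 1), that of Cib2 by -0.18 (exact permutation p = 0.3) and that of Tmie by 0.31 (exact permutation p = 0.2), and in each of these the groups overlapped.

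The tip-link cadherins were not called in either direction. Pcdh15, at the lower end of the link, had 191, 189 and 125 normalised counts in Control and 146, 249 and 117 in STREP animals. The groups overlapped fully, and STREP replicate 2 held the highest value of all 6 animals. The log2 fold change of 0.03 ± 0.38 (DESeq2 adjusted p = 0.993) had a 95% interval of -0.72 to 0.77, which includes a 1.5-fold difference either way. Pcdh15 had 78 to 311 raw counts per library, and it varied by 22.4% within the Control and 40.8% within the STREP animals. It became -0.15 without Control replicate 3 and -0.36 without STREP replicate 2.

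Cdh23, at the upper end, had 998, 634 and 729 normalised counts in Control and 1208, 1203 and 806 in STREP animals. The STREP males were above every Control animal, whereas the STREP female lay between the Control males. On the log2 scale the difference was 0.45 ± 0.24 (DESeq2 adjusted p = 0.450). Its 95% interval ran from -0.02 to 0.91, and the estimate stayed above 0 under every setting and omission, from 0.31 to 0.65. These libraries were made by a method that does not mark strand, and in the RefSeq annotation 6 of the 8 genes, all but Tmc1 and Lhfpl5, overlap another gene. Overlapping protein-coding genes are Psap, Vsir and C20h10orf105 for Cdh23, Sh2d7 for Cib2 and a locus without a gene name for Loxhd1, and the overlaps of Tmc2, Tmie and Pcdh15 are with a pseudogene or with genes that encode no protein. Sh2d7 had at most 17 raw counts in any of the libraries. Most of the overlapping genes were not matched by name in the count table and were not analysed here. Psap had 61279 ± 8929 normalised counts in Control and 65556 ± 20729 in STREP animals, and Vsir 170 ± 20.4 and 156 ± 55.4. Neither was called, and the part of overlapping genes in the values of the 8 genes was not tested. Within each animal, the log2 ratio of Cdh23 to Pcdh15 was 2.39, 1.75 and 2.55 in Control and 3.04, 2.27 and 2.79 in STREP animals, which overlap (mean difference 0.47, exact permutation p = 0.3). This difference was 0.23 without Control replicate 2 and 0.30 without STREP replicate 1. The 250 bases before the Cdh23 start, at chr20:29165333-29165582 on the minus strand of GRCr8, are given as the counterpart of the Tmc2 window, since these genes lie at opposite ends of the range of changes.
Cdh23: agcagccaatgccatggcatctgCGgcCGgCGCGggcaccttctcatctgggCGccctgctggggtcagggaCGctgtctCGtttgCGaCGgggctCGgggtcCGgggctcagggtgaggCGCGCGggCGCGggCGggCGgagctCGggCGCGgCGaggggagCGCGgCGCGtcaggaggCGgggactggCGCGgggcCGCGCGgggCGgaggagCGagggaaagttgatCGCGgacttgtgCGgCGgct
This window held 38 CG dinucleotides and 76.4% G or C. The windows of Tmie, Lhfpl5 and Cib2 held 33, 22 and 18 CG, that of Pcdh15 held 6, and the pair of windows listed for Loxhd1 held 4 and 2. How CG content relates to the changes was not tested. Both strands of the windows were also searched for the E-box forms CAGCTG and also CAGATG, for the promoter box TATAAA, for the partial RFX motif GTTGCC, for the box with the letters CCCGCC that Sp factors bind (which holds the dinucleotide marked above) and for the GFI1 form AATCNNNGC. These occur in 11.97, 13.96, 12.93, 9.89, 29.35 and 8.58% of all windows, respectively. CAGCTG was found once in Lhfpl5, CAGATG 2 times in Cdh23, and CCCGCC 4 times in Lhfpl5 and Cib2, 3 times in Tmie and 2 times in Cdh23. None of the 6 forms occurred in the windows of Tmc1, Tmc2, Pcdh15 or Loxhd1.

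**Figure D2:**
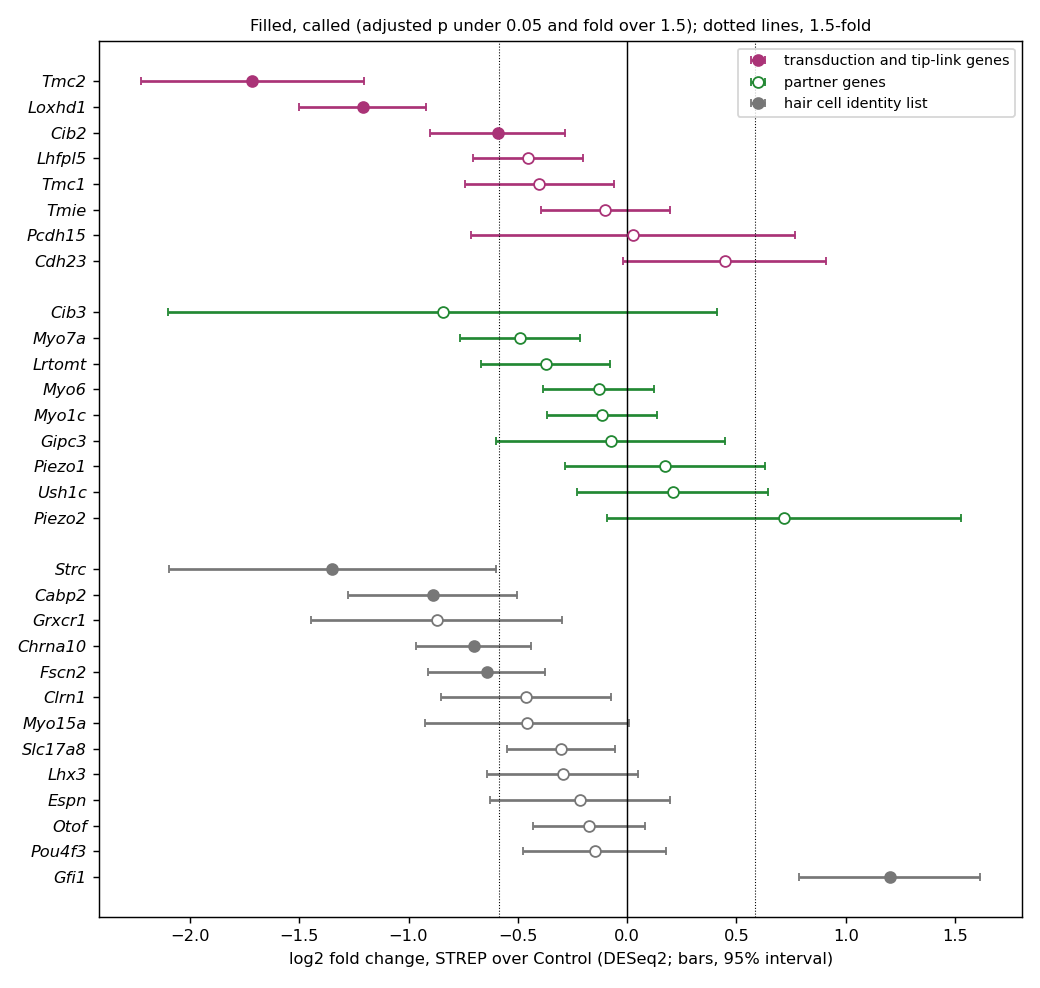
Log2 fold changes of STREP over Control animals (DESeq2) with 95% intervals for the 8 genes, the partner genes and the HC identity list, leaving out 2 partner genes with under 50 normalised counts (Ush1g and Pkhd1l1); filled points were called. Tmc2 (-1.71) and Loxhd1 (-1.21) lie left of the 1.5-fold line with their whole intervals, Cib2 (-0.59) lies on it, and Cdh23 (0.45) is the highest of the 8.

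Other genes of the transduction apparatus were taken from a list of 12 symbols, of which 11 were in the table. Of these, 0 were called in either direction, against 1.37% lower and 1.87% higher over all genes tested, and the median log2 fold change was -0.13. At these shares, 0 calls among 11 genes does not set them apart. In 3 of the 11, all STREP animals lay below all Control animals, against 8.63% of tested genes, and in 1 they lay above. Myo7a, the myosin at the upper end of the tip link, averaged 4896 normalised counts in Control and 3482 in STREP animals (log2 fold change -0.49, DESeq2 adjusted p = 0.0162), and it was the single gene of the list under the adjusted p threshold. Lrtomt, whose product TOMT brings TMC proteins to the bundle in mice, was not called (log2 fold change -0.37, adjusted p = 0.197 in DESeq2), with Control animals at 1823 to 1993 and STREP animals at 1289 to 1581. Cib3, the paralog of Cib2 used by vestibular HCs, had 3936, 2079 and 2246 normalised counts in Control and 2140, 524 and 1942 in STREP animals. This spread within the groups left its log2 fold change at -0.84 ± 0.64 (DESeq2 adjusted p = 0.704). Ush1c, which encodes the tip-link scaffold harmonin, stood at 0.21 (DESeq2 adjusted p = 0.839) with overlapping groups. Its normalised counts were 54752 to 65375 in Control animals and 56504, 53740 and 101030 in STREP animals, so STREP replicate 3 alone was high. The unconventional myosins Myo6 and Myo1c stood at -0.13 and -0.11. Piezo2, another mechanically gated channel, had few counts (52.7 to 58.3 in Control and 75.9 to 106 in STREP animals) and was not called (0.72 on the log2 scale, adjusted p = 0.513 in DESeq2). For Ush1g no library held more than 24 raw counts, and a difference was not detectable at this depth.

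Paralogs of Tmc1, Tmc2, Lhfpl5 and Cib2 that are less tied to HCs were read from a list of 14 symbols, of which 11 matched a symbol in the table. Tmc3 and Cib4 had 0 counts in every library, where 3 counts, the detection floor used here, correspond to 1.84 to 4.49 normalised counts. Of the 9 tested, 0 were called, and the median log2 fold change was -0.02. Over all genes tested, 1.37% were called lower and 1.87% higher, so 0 calls among 9 genes does not set them apart. Tmc4 had a log2 fold change of -0.14, Cib1 of -0.02 and Lhfpl2 of 0.00, each with overlapping groups. Lhfpl6 stood at 0.27 (DESeq2 adjusted p = 0.384), and Tmc7 at -0.68 (DESeq2 adjusted p = 0.667) with 67.1 to 99.4 normalised counts in Control and 37.4 to 64.8 in STREP animals. Tmc5 had 26, 20 and 0 raw counts in Control and 0 in all STREP animals, and was not called. Apart from Tmc2, no measured TMC gene was called, although for Tmc1 and Tmc7 every STREP animal lay below every Control animal.

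Identity genes of HCs were used to ask whether the 8 genes moved more or less than HC transcripts as a group. Of 13 such genes, 4 were called lower (Cabp2, Chrna10, Fscn2 and Strc), against 1.37% of all genes tested. Gfi1, a transcription factor of HCs, was the 1 called higher, against 1.87%. Below 0 were 12 of 13, against 49.04% of all genes tested, with a median of -0.46. The genes called lower had log2 fold changes of -1.35 ± 0.38 (Strc), -0.89 (Cabp2), -0.70 (Chrna10) and -0.64 (Fscn2). The estimate for Loxhd1 (-1.21) thus lay within the range of the list, whereas that for Tmc2 (-1.71) lay below it. Summed normalised counts of the 13 genes ran from 81245 to 88392 in Control and from 62948 to 76218 in STREP animals. Each of the 8 genes was divided by the geometric mean of the list in the same animal. For Tmc2 the log2 ratio was -2.79, -2.36 and -2.20 in Control and -3.99, -3.66 and -3.55 in STREP animals, a mean difference of -1.29. For Loxhd1 it was -0.22, -0.21 and -0.30 in Control and -0.97, -0.95 and -1.16 in STREP animals, a mean difference of -0.78. Both differences held in 3 of 3 STREP animals (exact permutation p = 0.1 for each). Cib2, Lhfpl5 and Tmc1 differed from the list by -0.16, -0.02 and 0.02, with overlapping groups. Tmie and Cdh23 were higher relative to the list in 3 of 3 STREP animals, by 0.33 and 0.88 (exact permutation p = 0.1 for each), although neither was called on its own. The counts of Tmie itself were lower in every STREP animal (log2 fold change -0.10), so its higher ratio arises from the lower values of the list. Pcdh15 differed by 0.41 with overlapping groups (exact permutation p = 0.4), and by 0.18 without Control replicate 3, 0.14 without STREP replicate 2 and 0.65 without STREP replicate 3. Without Gfi1 in the list, an alternative added after the data were seen, the differences were -1.15 for Tmc2, -0.64 for Loxhd1, 0.47 for Tmie and 1.02 for Cdh23, and in these 4 the groups still did not overlap.

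**Figure D3:**
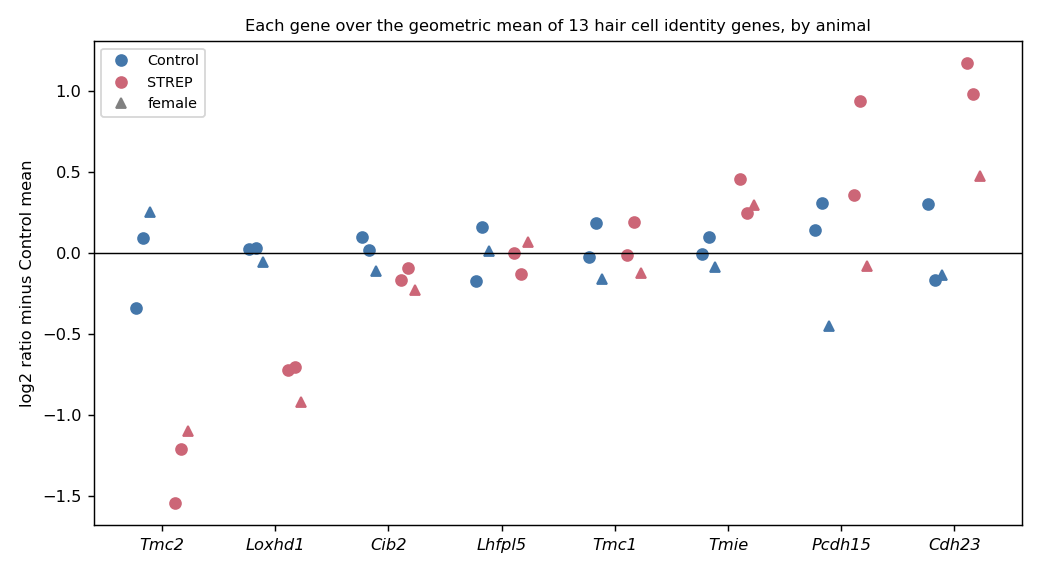
Log2 ratio of each gene to the geometric mean of the 13 HC identity genes in the same animal, minus the Control mean of that ratio; blue marks Control, red STREP, circles males and triangles females. Tmc2 and Loxhd1 lie below all Control animals in every STREP animal, Tmie and Cdh23 lie above them, and Cib2, Lhfpl5, Tmc1 and Pcdh15 overlap.

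Among themselves, the 8 genes had unlike profiles. Profiles were compared as log2(normalised count + 1) over the 6 animals, each centred on its own mean, by the root mean square difference. Tmc1 and Cib2 were the closest pair (0.14), followed by Tmc1 and Lhfpl5 (0.18) and by Lhfpl5 and Cib2 (0.18), whereas Tmc2 and Cdh23 were the farthest apart (1.17). For the 4 genes with an adjusted p-value under 0.05, the 3 nearest genes were also sought among the 12123 genes that averaged 100 or more normalised counts. For Tmc2 they were AC141969.1 (0.16) and the potassium channel genes Kcnh7 (0.22) and Kcna10 (0.23), whose own log2 fold changes were -1.67, -1.66 and -1.56. For Loxhd1 they were Lmnb2, which encodes a nuclear lamin (0.06), Cyp4f4 (0.08) and Mycbpap (0.11). The nearest to Lhfpl5 were Clybl, Pla2g16 and Tmem175 (0.05 to 0.06), and those to Cib2 were Rhbdl1, Pcsk6 and Ramp3 (0.04 to 0.05). These genes were picked for a like profile over the same animals, so their similar fold changes follow from the choice. No function shared with these genes is implied by a like profile over 6 animals.

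The differences were also read within each sex. For the 6 genes with separate groups, STREP animals were below Control animals in each sex. This follows from that separation and adds no further evidence. The log2 difference for Tmc2 was -1.67 in males and -1.82 in the female pair, and for Loxhd1 it was -1.15 and -1.33. For Cdh23 it was 0.60 in males and 0.14 in the female pair. An interaction of sex and group fitted in DESeq2 had an adjusted p of 0.999 for each of the 8 genes, with 1 female per group. For Cdh23 its estimate was -0.42 ± 0.47, so a difference between sexes of the size seen could not be resolved.

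**Figure D4:**
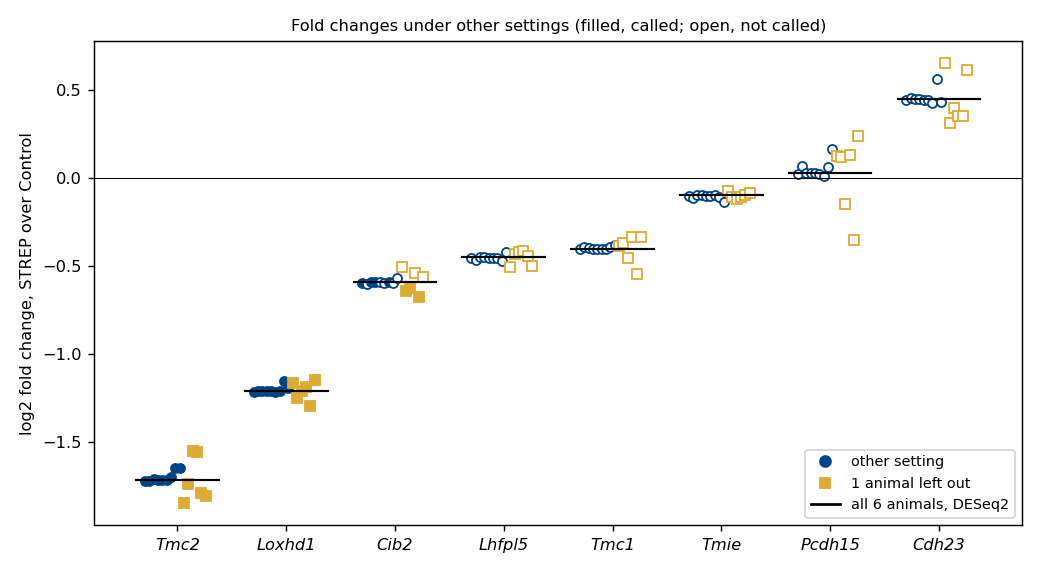
Log2 fold change of each gene under 9 other settings (blue circles) and with each of the 6 animals left out (yellow squares); filled symbols were called and black lines give the value from all animals. Tmc2 and Loxhd1 were called throughout, Cib2 changes between called and not called near -0.59, and Pcdh15 spreads from -0.36 to 0.24.

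Library totals were lower in every STREP animal (29333584 to 33744909 counts) than in every Control animal (48568191 to 59906048, exact permutation p = 0.1), so depth cannot be told apart from treatment in the raw counts. After all libraries were thinned at random to the smallest total, Tmc2 (-1.65) and Loxhd1 (-1.19) were still called and Cib2 (-0.57) was not. The 6 libraries belong to the same experiment of the study, but whether they were prepared and sequenced together was not established here. Marker lists of other cells of the dissected tissue moved in different directions. Over all genes tested, 1.37% were called lower, 1.87% were called higher and 49.04% were below 0. Of the supporting cell markers, 0 of 8 were called, with summed normalised counts of 471721 to 592920 in Control and 549255 to 965396 in STREP animals. Most of these sums came from Otog alone, with 334983 to 410468 in Control and 425664 to 729507 in STREP animals. Of the neuronal markers, 1 of 6 was called (Tubb3, 1.28), with sums of 4137 to 4648 and 4022 to 4313. All 5 Schwann cell markers were below 0 (median -0.59), with sums of 219442 to 301644 and 113361 to 241822. Of these, 1 was called (Prx, -0.68), although its groups overlapped. Of the dark cell markers, 0 of 5 were called, but 4 were below 0 and the sums did not overlap (46007 to 51489 and 31988 to 38877). By the adjusted p-value alone, 1 of them was lower (Slc12a2, log2 fold change -0.55, DESeq2 adjusted p = 0.0035). None was called among 4 melanocyte markers (median -1.01, sums 25276 to 26078 and 25708 to 38349), 6 macrophage markers (2859 to 4073 and 3668 to 4287) and 5 fibroblast and bone markers (4163 to 5749 and 2851 to 6235). Nearly all of the melanocyte sums came from Pmel (log2 fold change 0.29), whereas 3 of the 4 melanocyte markers were below 0. No marker of these lists was at 0 in all libraries, and their part in the values of the 8 genes was not tested.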

How the data were processed

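RNA was measured in 6 libraries, 1 per animal, made with a modified SMART-seq2 protocol (oligo-dT priming, 8 cycles of cDNA amplification and 12 of library amplification). The authors aligned the reads with STAR 2.5.3a to Rnor6.0 and quantified them with RSEM 1.3.0, the version given in the submitters' processing notes. They deposited expected counts (estimated reads per gene, here with 0 entries that were not whole), which were not scaled between libraries. RSEM shares reads among similar genes, so values of close copies are less certain. Groups came from the sample labels, and replicates were numbered in order of deposition. Whether animals came from separate litters is not given, and a pair of STREP titles share a number, so p-values measure the spread between these animals.

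The fit used DESeq2 1.42.0 under R 4.3.3 on the whole table, scaled by the median of ratios, with treatment alone in the model, and Wald statistics gave the standard errors, 95% intervals and p-values, with independent filtering at 0.05. Ratios within an animal were compared by exact two-sided permutation tests. Other settings replaced the size factors by TMM or by library totals, required 10 counts in 3 samples, turned independent filtering off, added sex to the model, used males only, thinned the libraries, or used the quasi-likelihood test of edgeR 4.0.16 on filtered or unfiltered counts. The adjusted p alone was also used as the rule, and each animal was left out in turn. The procedure was tested on simulated data. The 8 genes, the gene lists and the tests were chosen with earlier results of these data known. Genes named were the 8, those lists and the 3 nearest profiles per gene under the adjusted p threshold. Sequences came from RefSeq (GRCr8), in which all 8 genes matched. Levels of different genes were not compared, because transcript lengths were not used here. The detection floor of 3 counts covers counting error only, because PCR copies cannot be recognised without molecular identifiers.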

Additional observations from a re-analysis of the deposited data

How the results depend on the processing

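The number of genes called over the whole table was 223 lower and 304 higher. It was 139 and 170 with library totals as size factors, 126 and 138 with edgeR and filtering, and 135 and 160 with edgeR without filtering. Tmc2 and Loxhd1 kept direction and call in all 9 other settings and 6 omissions. The rule of the adjusted p alone uses the main fit and keeps every call by definition. Lhfpl5 (-0.45) counts as lower when the adjusted p alone is used. Cib2 lost its call with library totals (-0.60), edgeR with and without filtering (-0.59 and -0.60), males alone (-0.60) and thinned libraries (-0.57), and with 1 animal left out it ran from -0.68 to -0.51. Pcdh15 ran from -0.36 to 0.24 with 1 animal left out and so had no stable direction. The cause of these changes was not tested. Tmc1, Tmie and Cdh23 kept direction and stayed uncalled throughout. The ratios to the HC identity list moved with its composition. Without Gfi1 the difference for Cib2 was -0.02 and that for Lhfpl5 0.12, and with Myo7a in place of the list they were -0.10 and 0.04, both references being added after the data were seen. With 1 animal left out, the ratio of Cdh23 to Pcdh15 ran from 0.23 to 0.69 and that of Pcdh15 to the list from 0.14 to 0.65, while Lhfpl5 to Tmc1 (-0.15 to 0.10), Tmc1 to the list (-0.07 to 0.11) and Lhfpl5 to the list (-0.11 to 0.06) took both signs. The moves of these ratios with 1 animal left out or with Myo7a as reference were within the pooled SD between animals. Without Gfi1 the moves for Cib2, Lhfpl5, Tmie and Loxhd1 were larger than that SD. No limit set by depth was compared between genes. No paired analysis was possible because no number in the sample titles is shared by a Control and a STREP animal.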
